A study of Mus musculus with 9 samples.

Results

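The 10 genes described here are Fos, Fosb, Jun, Junb, Atf3, Egr1, Zfp36, Ier2, Dusp1 and Ptgs2, read by symbol from tables that hold 22587 genes, and each was measured in all 9 libraries. Of the 10, Junb, Zfp36, Ier2 and Ptgs2 were chosen by measured values, namely lower means in injected than in uninjected mice, so for these 4 genes the comparisons with uninjected mice are descriptions without a test. The other 6 were listed as known immediate early genes. RNA was sequenced from whole eyeballs of wild-type female BALB/C mice, an albino strain, at postnatal day 56. CON mice were not injected and drank water. DES mice received scopolamine, a blocker of muscarinic acetylcholine receptors that causes dry eye, by injection into the abdomen, with water. T.chuii mice received the same injection and were fed Tetraselmis chuii, a green microalga, at 300 mg/kg. Treatment ran for 2 weeks from an age of 6 weeks, each group had 3 libraries, and the study used 15 mice. The sources used here do not say whether each library is 1 animal, so p-values measure the spread between libraries, which may be technical. They also do not say how long after death the eyes were frozen.

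Immediate early genes are transcribed within minutes of a stimulus, from factors that are already present in the cell, and need no new protein. Growth factors, calcium, cAMP and stress reach them through MAP kinases, serum response factor and CREB, and their messages are short-lived because AU-rich elements in the 3' untranslated region mark them for decay. Several of their products close the loop: Dusp1 removes phosphate from MAP kinases and Zfp36 binds AU-rich elements and speeds decay. Ptgs2 encodes cyclooxygenase-2, the inducible enzyme that starts prostanoid synthesis, and is itself an early response gene in many cell types.

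Shown are the promoters of Fos and of Zfp36 and Dusp1, 2 of the 3 listed genes nearest to Fos in profile over the 9 libraries. Shorter stretches of Fosb and Ptgs2 are added because both hold the same core motif. Sequences are from RefSeq (GRCm38.p6), which gave an entry used here for 8 of the 10 genes, not Egr1 or Ier2. The first 3 lines are the 250 bases before the annotated start and the last 2 are 30 bases around the motif, inside the span of the gene, all 5' to 3' in the gene's direction. Capitals mark TGACG, the core of a cAMP response element, on either strand (CGTCA when read on the other strand), the full palindrome TGACGTCA in Dusp1, and in Zfp36 a CArG box, the core bound by serum response factor.
Fos, chr12:85473640-85473889, plus strand: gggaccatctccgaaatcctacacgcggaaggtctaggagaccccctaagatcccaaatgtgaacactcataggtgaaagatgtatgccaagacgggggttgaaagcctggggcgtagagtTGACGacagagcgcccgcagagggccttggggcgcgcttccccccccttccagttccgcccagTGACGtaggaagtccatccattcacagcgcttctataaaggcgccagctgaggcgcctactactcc
Zfp36, chr7:28379229-28379478, minus strand: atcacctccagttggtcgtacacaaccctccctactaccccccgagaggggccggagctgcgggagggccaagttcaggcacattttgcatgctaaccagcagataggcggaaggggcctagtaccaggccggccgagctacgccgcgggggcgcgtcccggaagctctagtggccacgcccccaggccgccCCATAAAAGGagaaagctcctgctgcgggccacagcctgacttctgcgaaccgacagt
Dusp1, chr17:26508473-26508722, minus strand: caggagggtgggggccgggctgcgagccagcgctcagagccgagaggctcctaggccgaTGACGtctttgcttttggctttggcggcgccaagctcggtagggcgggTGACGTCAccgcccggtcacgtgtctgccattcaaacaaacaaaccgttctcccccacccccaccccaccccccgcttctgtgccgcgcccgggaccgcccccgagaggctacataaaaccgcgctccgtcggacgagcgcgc
Fosb, chr7:19310088-19310117, minus strand: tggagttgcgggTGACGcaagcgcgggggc
Ptgs2, chr1:150100032-150100061, plus strand: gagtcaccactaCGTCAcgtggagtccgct

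Both strands of the 300 bases from 250 before to 50 after the start were searched in 32851 promoters. TGACG was present in 6 of the 8 genes (Fos, Fosb, Junb, Atf3, Dusp1 and Ptgs2), against 20.8% of all promoters. It began 129 and 66 bases before the start of Fos, 106 before that of Junb and 191 and 143 before that of Dusp1. In Fosb it began 60 bases before the start that the promoter table uses, chr7:19310045, but the RefSeq span of the gene reaches to base 19310118, so the site and the 30 bases shown lie inside that span. In Atf3 it lay on the other strand, 7 bases before the start, and in Ptgs2 on the other strand at base 14 after it. The full element TGACGTCA, which contains TGACG on both strands, was found in Dusp1 alone of the 8 and in 1.79% of all promoters. The CArG box was found in Zfp36 alone and in 1.63% of promoters, and ATAAA, which in Zfp36 lies inside that box, in 5 of 8 genes and 40.01% of promoters. The GC box GGGCGG was found in 7 of 8 genes and 35.7% of promoters, and the AP-1 site TGANTCA in none of the 8 and in 7.81%. These are matches of letters in a short window and do not show binding. Bases farther from the start were not searched, so a gene without a match may still have a site there.

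All of these messages except that of Ier2 also carry a decay motif. The pentamer ATTTA, the unit of AU-rich elements, was counted in the 3' untranslated region of the principal transcript of each gene (GENCODE M21, GRCm38). Ptgs2 had 14 copies, a number reached by 2.47% of 15460 genes. Fos, Jun and Dusp1 had 4 each, reached by 26.9% of those genes, and Atf3 and Zfp36 had 3, reached by 34.9%. Junb and Egr1 had 2, reached by 47.2%, Fosb had 1, reached by 66.3%, and Ier2 had none. The median density was 3.56 copies per kb over the 10 genes and 1.23 over the 15460 genes, and the longer unit TATTTAT, which contains ATTTA, was found in 70% of the 10 and 27.9% of all. Jun, Junb and Ier2 have a single exon, which holds for 30% of the 10 and 2.70% of all, while Ptgs2 has 10 exons. The densest 30 bases of Fos and Ptgs2 are shown with each ATTTA in capitals, overlapping copies run together.
Fos, chr12:85477090-85477119, plus strand: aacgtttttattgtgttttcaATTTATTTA
Ptgs2, chr1:150105794-150105823, plus strand: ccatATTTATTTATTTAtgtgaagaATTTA

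Library totals lay between 39.1 and 64.6 M reads, and levels are given as CPM, read counts scaled to library size after trimmed means of M-values were used to set the libraries on 1 scale. Of 14 corneal epithelium markers and 15 rod photoreceptor markers, all were in the tables, and the ratio of their summed reads set 3 libraries apart. It was 4.57 in CON 2, 4.49 in T.chuii 1 and 2.89 in DES 1, and between 0.376 and 0.953 in the other 6. These 3 are called cornea-rich below, and each group holds 1 of them. Corneal RNA was still not even between the groups: all 14 corneal markers had a negative difference in each comparison, with medians of -0.39 in DES vs CON, -0.80 in T.chuii vs CON and -0.44 in T.chuii vs DES, and their summed share of reads was 3.19% to 7.995% in CON, 2.65% to 5.21% in the DES libraries and 1.47% to 4.64% in T.chuii. The direction is that of most of the 10 genes. With the cornea to rod ratio as a covariate, DES vs CON log2 differences were -0.65 for Fos, -1.62 for Fosb, 0.52 for Jun and -0.40 for Junb. They were -0.36 for Atf3, -0.18 for Egr1, -0.38 for Zfp36, -0.083 for Ier2, -1.06 for Dusp1 and -1.63 for Ptgs2. For T.chuii vs CON, with the same covariate, they were -1.69 for Fos, -1.23 for Fosb, -0.74 for Jun and -1.24 for Junb. Covariate values of the other genes in T.chuii vs CON are not given here. Values without the covariate are given for each gene below. The part of corneal RNA in the differences of the 10 genes was not tested. Of 16 lens fibre markers listed, 10 were in the tables. They held 0.0240% to 0.0310% of reads in CON, 0.0432% to 4.24% in the DES libraries and 1.24% to 6.21% in T.chuii. Lens RNA was thus nearly absent from CON and from DES 2, the DES library at 0.0432%, although the tissue is labelled eyeball. Fast muscle markers (12 of 12) held 0.0742% to 0.246%, 0.132% to 0.778% and 0.347% to 1.49%, and keratocyte and scleral markers (12 of 12) 0.460% to 0.554%, 0.256% to 0.406% and 0.248% to 0.497%. Of 7 adipocyte markers, 3 were in the tables, and they held 0.142%, 0.0338% and 0.00886% of reads in T.chuii libraries 1 to 3 and at most 0.00399% in the others. No gene in the tables had a count of 0 in any library, so the absence of a marker could not be seen in them. In bulk eyes, fewer cells of a type and less RNA per cell cannot be told apart.

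Per length, as mean FPKM in CON ± SD (n = 3), Junb stood at 138 ± 35.6, Dusp1 at 119 ± 65.4 and Fos at 91.0 ± 71.2. Zfp36 stood at 66.0 ± 34.8, Ier2 at 64.7 ± 13.9 and Egr1 at 36.5 ± 33.7. Jun stood at 25.7 ± 6.505, Atf3 at 10.7 ± 5.69, Ptgs2 at 1.18 ± 0.663 and Fosb at 0.951 ± 0.936. Neighbours in this FPKM order differed by less than the larger of their SDs, except Jun and Atf3, and Atf3 and Ptgs2. Fosb and Ptgs2, the weakest, were read from 5 to 280 and from 59 to 350 counts per library.

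**Figure D1:**
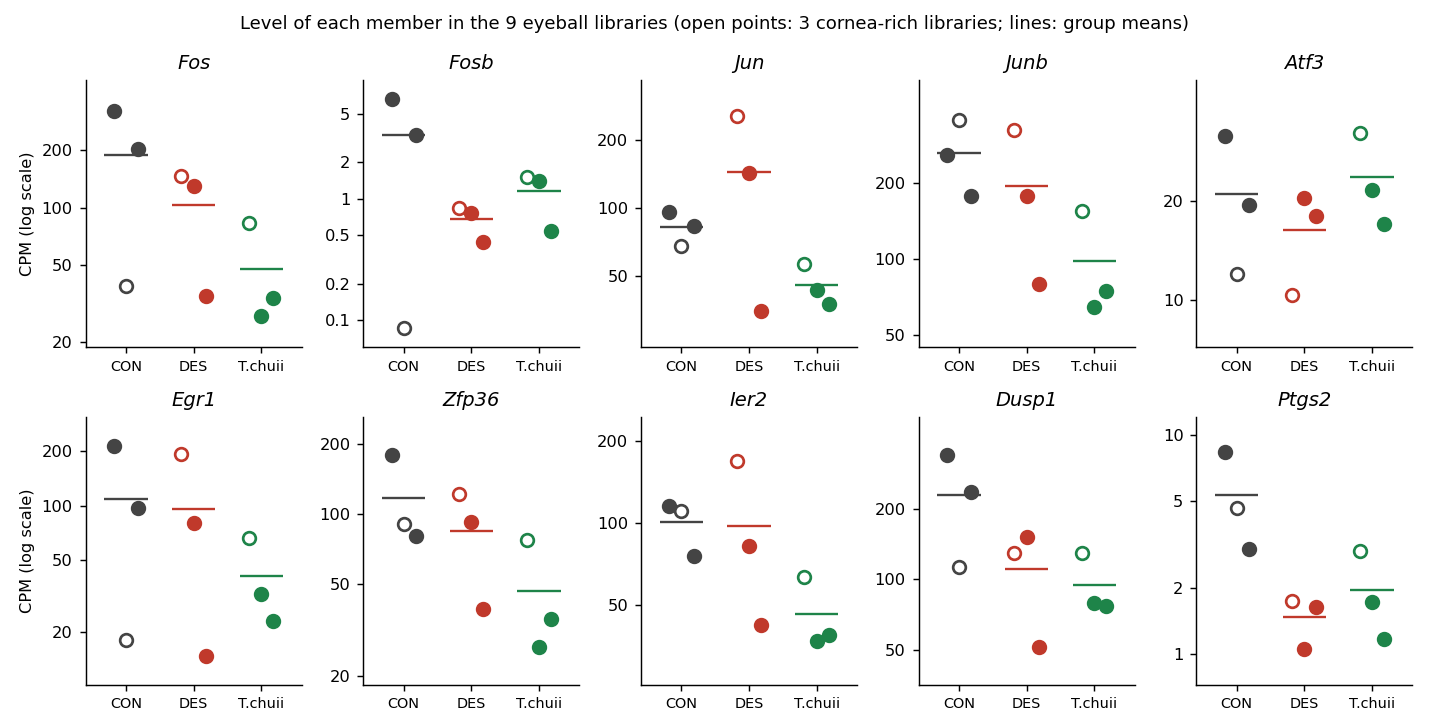
Level of each of the 10 genes in CPM (log axis, a separate range for each gene) in the 9 libraries. Points are libraries, left to right in the order of replicate number, open points are the 3 cornea-rich libraries and horizontal lines are group means. For Ptgs2 all 6 injected libraries, 1.04 to 2.96 CPM, sit below the lowest CON library at 3.02, and for Fos and Egr1 CON 2 sits far below the other CON libraries.

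The 10 genes varied widely between the 9 libraries. In each gene the highest library exceeded the lowest by 3.13-fold (Atf3) to 77.2-fold (Fosb) in CPM, with a median of 7.02-fold, against a median of 2.19-fold over 17178 genes with a mean of at least 1 CPM. Fos (11.8-fold), Fosb and Egr1 (14.5-fold) ranged at least 8-fold, as did 3.37% of those genes. All of these ranges are over the 9 libraries, so for the 4 picked genes they include the gap used to pick them. Ptgs2 ranged 7.95-fold over the 9 but 2.75-fold, 1.67-fold and 2.52-fold within CON, DES and T.chuii. The whole range of Fosb, in contrast, lay within CON. CON 1 was the highest library for 6 genes and among the top 3 for all 10, while T.chuii 3 was among the lowest 3 for all 10 and DES 3 for 9. Summed over the 10 genes, CPM reached 1570 in CON 1, 811 in CON 2 and 980 in CON 3, 1351 in DES 1, 879 in DES 2 and 317 in DES 3, and 668 in T.chuii 1, 335 in T.chuii 2 and 339 in T.chuii 3. These sums, and the rank counts before them, include the 4 genes picked for lower means in injected mice. Higher places of CON than of injected libraries are therefore partly built in. Over the 6 genes that were not picked, the sums were 1007, 250.1 and 642 CPM in CON libraries 1 to 3, 736, 524 and 154 for DES, and 369, 205 and 189 for T.chuii. All 3 groups overlapped in this sum, with CON 2 below T.chuii 1.

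**Figure D2:**
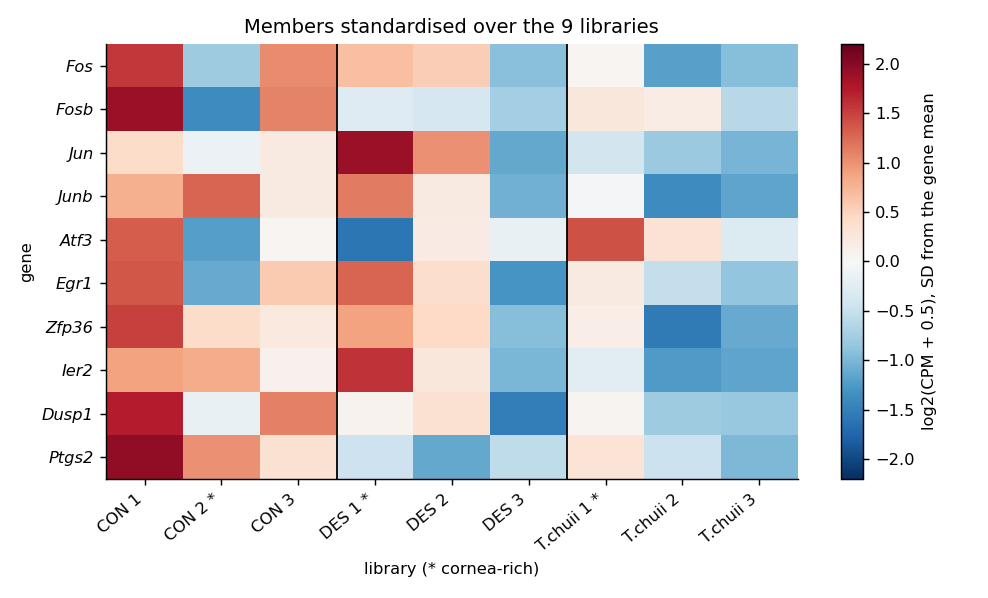
Level of each gene (rows) in each library (columns, asterisks for the cornea-rich ones) as log2(CPM + 0.5), standardised so that 0 is the gene's mean over the 9 libraries and 1 is 1 SD. CON 1 is above the mean for all 10 genes, DES 3 and T.chuii 3 are below it for all 10, and CON 2 is low for Fos, Fosb, Atf3 and Egr1 but high for Junb, Ier2 and Ptgs2. The 10 include Junb, Zfp36, Ier2 and Ptgs2, picked for lower means in injected mice.

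Fos (chr12:85473890-85477274, GRCm38.p6, as for the genes that follow) encodes the partner that pairs with Jun proteins to form AP-1. Its level was 320.3, 39.2 and 203 CPM in CON libraries 1 to 3, 146, 129 and 34.6 in the DES libraries, and 83.5, 27.1 and 34.0 in T.chuii. CON 1 and CON 3 were above all others, but CON 2 was as low as DES 3 and T.chuii 3, so the groups overlapped. Means were 188 ± 141, 103 ± 60.0 and 48.2 ± 30.7 CPM (SD, n = 3). The fitted log2 difference was -0.68 ± 0.78 (SE) for DES vs CON and -1.70 ± 0.78 for T.chuii vs CON, and neither passed the limma test (adjusted p = 1.00 and 0.986). Without the 3 cornea-rich libraries the means were 262, 81.9 and 30.6 CPM and the differences -1.96 and -3.09, still short of the limma threshold with adjusted p = 1.00 and 0.428. Single libraries moved these values in either direction: DES vs CON was -0.051 without CON 1 and -0.023 without DES 3, and T.chuii vs CON was -1.07 without CON 1 and -2.60 without CON 2.

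Fosb (chr7:19302696-19310118), a close relative of Fos, was much weaker. It stood at 6.64, 0.0861 and 3.36 CPM in CON, 0.842, 0.758 and 0.442 in the DES libraries, and 1.51, 1.396 and 0.548 in T.chuii. The highest values and the lowest were both in CON, and CON 2 rests on 5 reads. Means were 3.36 ± 3.28, 0.681 ± 0.211 and 1.15 ± 0.527 CPM. The log2 difference was -0.87 ± 1.32 for DES vs CON and -0.23 ± 1.28 for T.chuii vs CON, with limma adjusted p = 1.00 and 0.997. Without the cornea-rich libraries it was -2.94 and -2.42, with limma adjusted p = 0.801 and 0.428, and without CON 1 its sign turned in both comparisons. Without CON 2 it was -2.77 and -2.14. In T.chuii vs CON the sign also turned without CON 3 or T.chuii 3.

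Jun (chr4:95049036-95052222), which encodes the central AP-1 subunit, was the 1 gene whose mean was higher in DES than in CON. Its level was 96.6, 67.7 and 83.6 CPM in CON, 256, 143 and 35.1 in the DES libraries, and 56.3, 43.3 and 37.6 in T.chuii. DES held the highest and the lowest library, whereas all T.chuii values lay below all CON values. Means were 82.6 ± 14.5, 144 ± 110.2 and 45.7 ± 9.60 CPM, and the log2 difference was 0.39 ± 0.57 for DES vs CON and -0.86 ± 0.57 for T.chuii vs CON. Neither passed the limma test (adjusted p = 1.00 and 0.986). The DES vs CON difference was -0.22 without DES 1 and 1.21 without DES 3.

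Junb (chr8:84976909-84978748) encodes an AP-1 subunit that is a weaker activator than Jun. It stood at 259, 354 and 178 CPM in CON, 324, 178 and 79.5 in the DES libraries, and 155, 64.6 and 74.9 in T.chuii. The 3 T.chuii libraries were below all CON libraries, and DES overlapped both groups. Means were 264 ± 88.0, 194 ± 123 and 98.1 ± 49.3 CPM, with log2 differences from CON of -0.62 ± 0.51 in DES and -1.48 ± 0.50 in T.chuii. The DES difference was -0.088 without DES 3 and -1.10 without DES 1. Unlike Fos, Junb was highest in CON 2. On the opposite strand the Jun locus overlaps the antisense gene Junos and the Junb locus overlaps Prdx2, and the sources used here do not give the strand setting of the counting.

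Atf3 (chr1:191170296-191183333) encodes a stress-induced factor of the ATF and CREB family. Its level was 31.6, 12.0 and 19.4 CPM in CON, 10.4, 20.5 and 17.9 in the DES libraries, and 32.4, 21.6 and 17.1 in T.chuii. All 3 groups overlapped, and no order of the groups was visible. Means were 21.01 ± 9.94, 16.3 ± 5.27 and 23.7 ± 7.87 CPM. The log2 difference was -0.29 ± 0.40 for DES vs CON and 0.25 ± 0.39 for T.chuii vs CON, with limma adjusted p = 1.00 and 0.987, and the second was -0.37 without the cornea-rich libraries. The sign of the first turned without CON 1 or DES 1, and that of the second without CON 2.

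Egr1 (chr18:34861207-34864956) encodes a zinc finger factor driven by serum response factor. It stood at 213, 17.9 and 96.8 CPM in CON, 193, 80.2 and 14.7 in the DES libraries, and 66.3, 32.2 and 23.0 in T.chuii. CON and DES each spanned more than the whole of T.chuii. Means were 109 ± 98.2, 96.1 ± 90.4 and 40.5 ± 22.8 CPM, and the log2 difference was -0.24 ± 0.99 for DES vs CON and -0.99 ± 1.00 for T.chuii vs CON (limma adjusted p = 1.00 and 0.986). The first had the opposite sign without DES 3, at 0.78, or without CON 1, at 0.55, and was -2.05 without the cornea-rich libraries. The second was -0.19 without CON 1 and -1.99 without CON 2.

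Zfp36 (chr7:28376784-28379228) encodes tristetraprolin, whose own message carries the AU-rich motif that the protein binds. Its level was 180.1, 90.6 and 80.4 CPM in CON, 122, 92.8 and 39.2 in the DES libraries, and 77.5, 26.7 and 35.4 in T.chuii. The lowest CON value, 80.4, was only just above the highest T.chuii value, 77.5, and DES overlapped both. Means were 117 ± 54.9, 84.7 ± 42.0 and 46.5 ± 27.2 CPM, and the log2 differences from CON were -0.53 ± 0.50 in DES and -1.40 ± 0.50 in T.chuii. The DES difference was -0.061 without DES 3 and -0.17 without CON 1. An antisense gene, Gm44710, overlaps the locus.

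Ier2 (chr8:84661331-84662852) encodes a short nuclear protein induced early by growth factors. It stood at 115, 111 and 76.0 CPM in CON, 168, 82.7 and 42.3 in the DES libraries, and 63.8, 37.2 and 38.8 in T.chuii. DES 1 was the highest of all libraries, and the T.chuii libraries lay below all CON libraries. Means were 101 ± 21.6, 97.8 ± 64.4 and 46.6 ± 14.9 CPM, with log2 differences from CON of -0.25 ± 0.44 in DES and -1.14 ± 0.44 in T.chuii. The sign of the DES difference turned without DES 3, at 0.24. Among the 4 picked genes Ier2 had the DES mean nearest to CON, and Jun, which was not picked, had a mean over the 6 injected libraries of 95.1 against 82.6 CPM in CON.

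Dusp1 (chr17:26505591-26508472) had the smallest unadjusted p of the 6 genes that could be tested against CON. Its level was 339, 113 and 235 CPM in CON, 129.7, 151 and 51.6 in the DES libraries, and 129, 79.0 and 76.7 in T.chuii. CON 1 and CON 3 were above all injected libraries, while CON 2 lay within their range. Means were 229 ± 113, 111 ± 52.4 and 95.0 ± 29.6 CPM. The log2 difference was -1.07 ± 0.48 for DES vs CON, with a limma p of 0.0471 and an adjusted p of 1.00, and -1.18 ± 0.48 for T.chuii vs CON, with a limma p of 0.0312 and an adjusted p of 0.986. Without the cornea-rich libraries the log2 differences were -1.71 and -1.88. The DES difference was -0.60 without DES 3 and -0.71 without CON 1, and the T.chuii difference -0.82 without CON 1, with unadjusted limma p of 0.211, 0.190 and 0.135, so these p-values rest on single libraries. Dusp1 overlaps Ergic1 and the pseudogene Gm8225, which are on the opposite strand. On its own strand it overlaps the pseudogene AC122252.4 and AC122252.1, a sense intronic gene.

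Ptgs2 (chr1:150100031-150108234) was the 1 gene of the 10 with all 6 injected libraries below the lowest CON library, a pattern held by 0.319% of the 21287 genes tested. It was picked for a low mean in the injected groups, so nothing is read from this share. Its level was 8.30, 4.63 and 3.02 CPM in CON, 1.75, 1.04 and 1.63 in the DES libraries, and 2.96, 1.72 and 1.17 in T.chuii. The gap to CON was narrow on the T.chuii side, where T.chuii 1 at 2.96 stood just under CON 3 at 3.02, and wider on the DES side. Means were 5.32 ± 2.71, 1.47 ± 0.375 and 1.95 ± 0.915 CPM, and the mean of CON was 3.11 times that of the 6 injected libraries. The log2 differences from CON were -1.74 ± 0.46 in DES and -1.41 ± 0.45 in T.chuii, and -1.93 and -1.78 without the cornea-rich libraries. With FPKM and a pseudocount of 1 in place of counts, the log2 differences were -0.70 and -0.61. Lens markers, summed above, were higher in all 6 injected libraries than in CON. DES 2 was only just above CON, at 0.0432% of reads against at most 0.0310%, and it had the lowest Ptgs2 level of all libraries. The part of lens RNA in the Ptgs2 difference was not tested.

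**Figure D3:**
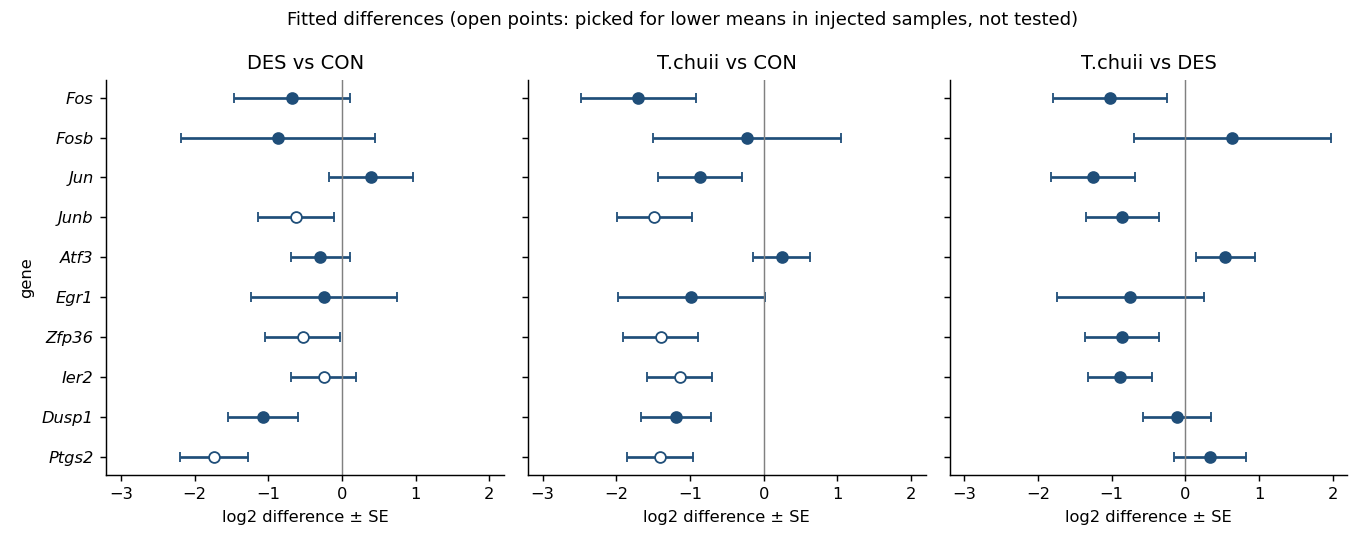
Fitted log2 difference (points) with its SE (bars) for each gene in the 3 comparisons. Open points are the 4 genes picked for lower means in the injected groups, which are not tested against CON. Of the 10 points, 9 are below 0 in DES vs CON, 9 in T.chuii vs CON and 7 in T.chuii vs DES.

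For DES vs CON, the comparison of scopolamine-injected with uninjected mice, none of the 6 testable genes passed the limma threshold of 0.05 after adjustment over 21287 genes, and neither did any other gene (0% called). One of the 6, Dusp1, had an unadjusted p under 0.05, against 1.1% of all genes. Of the 10 genes, 9 had a negative difference, against 52.4% of all genes, and their median was -0.58 against -0.02 over all genes. The groups were apart for 1 of 10, Ptgs2, against 1.65% of genes apart in that direction. These counts include the 4 picked genes and are descriptions.

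For T.chuii vs CON, again none of the 6 testable genes passed, with 0% of all genes called by limma, and 1 of 6, Dusp1, was under 0.05 before adjustment against 4.28% of all genes. Of the 10 genes, 9 had a negative difference, against 55.4%, with a median of -1.16 against -0.04. This count and this median include the 4 picked genes, chosen for lower means in injected mice, and are descriptions. Among the 6 genes not picked, Atf3 alone had a positive difference. The groups were apart for 5 of 10, against 2.97% of genes apart in that direction: Jun, and the picked genes Junb, Zfp36, Ier2 and Ptgs2. Both comparisons use the same CON libraries, so their counts are not independent. Over the 6 injected libraries together, the mean was at most 0.5 times that of CON for Fos (0.40), Fosb (0.27), Dusp1 (0.45) and Ptgs2 (0.32), as for 0.578% of all genes. Without CON 1 this ratio was 0.62 for Fos, 0.53 for Fosb, 0.59 for Dusp1 and 0.45 for Ptgs2, so that of these 4 only Ptgs2 stayed at or below 0.5, and it was 1.19 for Egr1 and 1.27 for Atf3. With all libraries the ratio was 0.55 for Junb, 0.56 for Zfp36, 0.625 for Egr1, 0.72 for Ier2, 0.95 for Atf3 and 1.15 for Jun.

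T.chuii vs DES compares injected mice with and without the microalga, was not used to choose any gene, and was tested for all 10. Of the 10 genes, 7 had lower means in T.chuii than in DES and 3 had higher means, against 54.9% of all genes with a negative difference. The median was -0.80 against -0.03 over all genes. None of the 10 passed the limma test, all at adjusted p = 1.00, 0% of all genes were called, and no gene of the 10 had groups apart, against 2.49% of genes apart in the lower and 2.3% in the higher direction. The AP-1 genes differed by -1.25 ± 0.57 (Jun), -0.86 ± 0.50 (Junb), -1.02 ± 0.77 (Fos) and 0.64 ± 1.34 (Fosb) on the log2 scale. The regulators of decay and of MAP kinases, Zfp36 and Dusp1, differed by -0.86 ± 0.50 and -0.11 ± 0.46. Ier2 differed by -0.89 ± 0.44, Egr1 by -0.75 ± 1.00, Atf3 by 0.54 ± 0.40 and Ptgs2 by 0.33 ± 0.49, with a Ptgs2 mean of 1.95 CPM in T.chuii against 1.47 in DES. DES 3 lay within or below the T.chuii range for all 10 genes. The sign of the Egr1 difference turned without DES 1 and that of Dusp1 without any of DES 1, DES 2, T.chuii 2 and T.chuii 3, and the Ptgs2 difference was 0.0019 without T.chuii 1. For Fos, Jun, Junb, Zfp36 and Ier2 the difference lay between -0.65 and -0.38 without DES 1 and between -2.08 and -1.34 without DES 3. The smallest unadjusted limma p was 0.0513, for Jun. With the replicate number as a block, the unadjusted limma p was 0.0301 for Jun, 0.0490 for Junb, 0.0205 for Zfp36 and 0.0184 for Ier2. All of these had an adjusted p of 1.00. The replicate number comes from the sample titles and is not known to pair libraries, so nothing is read from these p-values.

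The profiles of the 10 genes were not all alike. Likeness was measured as the root-mean-square distance between standardised log2 levels over the 9 libraries, where 0 is the same profile. The genes nearest to Fos were Egr1 (0.39), Dusp1 (0.39) and Zfp36 (0.51), followed by Fosb (0.69), Jun (0.71), Ier2 (0.74), Junb (0.82), Ptgs2 (0.98) and Atf3 (1.13). Among the 17178 genes with a mean of at least 1 CPM, the nearest outside the 10 were the pseudogene Gm17971 (0.43), Rsc1a1 (0.50), Dusp11 (0.55), Btg2 (0.59) and the pseudogene Gm10548 (0.60). Btg2, itself an early response gene, stood at 218, 70.8 and 119.8 CPM in CON, 92.3, 115 and 81.4 in the DES libraries, and 84.1, 86.5 and 89.1 in T.chuii. Ptgs2 was farther from the other 9, at 0.78 from Dusp1 to 1.28 from Jun. The genes nearest to Ptgs2 were Rbpms (0.34), Rad23b (0.35), Srcin1 (0.44), Vapb (0.45) and Trib1 (0.45). Rbpms, which encodes an RNA-binding protein used as a marker of retinal ganglion cells, stood at 68.2, 67.3 and 54.4 CPM in CON, and its 6 injected libraries lay between 46.7 and 54.5. These distances rest on 9 libraries and on genes that share them.

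The rest of the early response and of the prostanoid pathway was taken from 8 lists with 119 genes, of which 115 were tested. None passed the limma test in any comparison, in either direction, with 3, 5 and 4 of 115 genes at an unadjusted p under 0.05 in DES vs CON, T.chuii vs CON and T.chuii vs DES, against 1.1%, 4.28% and 1.09% of all genes. Of the 115, 88 had a negative difference in DES vs CON, 77 in T.chuii vs CON and 65 in T.chuii vs DES, against 52.4%, 55.4% and 54.9% of all genes.

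**Figure D4:**
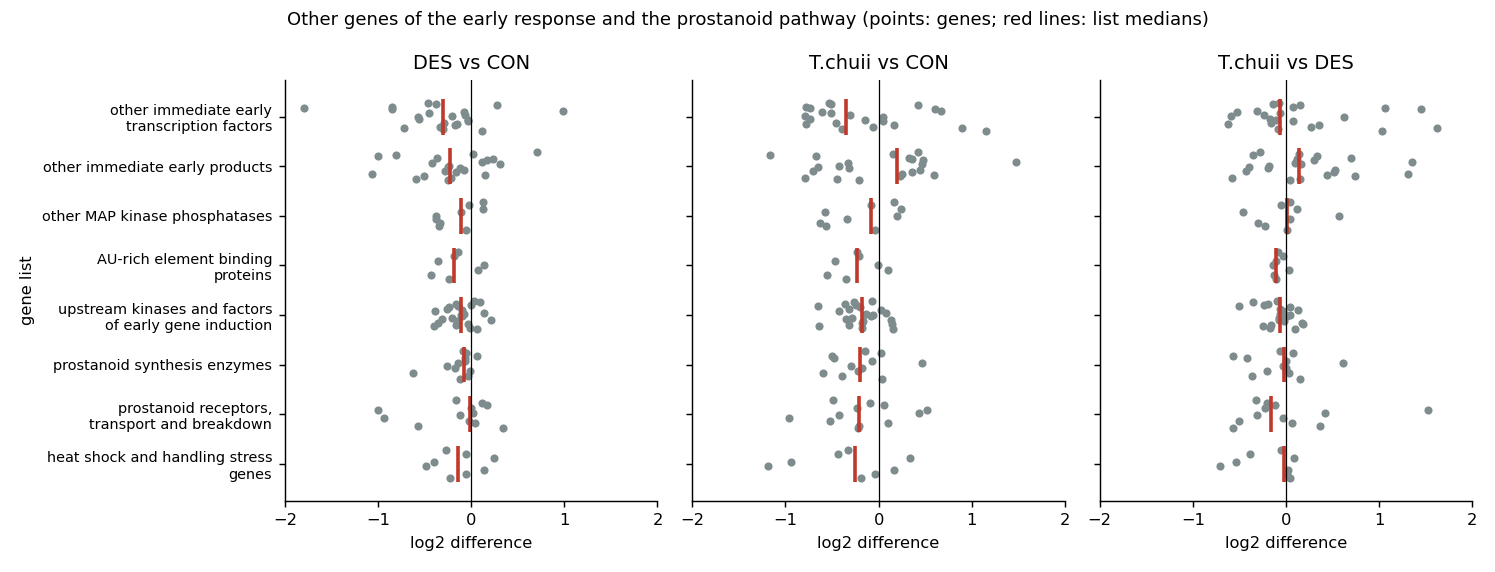
Fitted log2 differences of the other genes of the early response and prostanoid pathways in the 3 comparisons. Each grey point is a gene, spread vertically for visibility, and each red line is the median of its list. The medians of the other immediate early transcription factors are -0.30, -0.35 and -0.07, and most points lie within 1 log2 unit of 0.

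Other immediate early transcription factors were lower in 19 of 22 genes in DES vs CON (median -0.30) and in 14 of 22 in T.chuii vs CON (median -0.35), with none called by limma. Klf10, a growth-factor-induced repressor, stood at 43.6, 65.7 and 29.6 CPM in CON, 48.8, 36.1 and 31.0 in the DES libraries, and 31.4, 21.6 and 24.2 in T.chuii, with a T.chuii vs CON log2 difference of -0.79 ± 0.31. Egr2, a relative of Egr1, stood at 2.44, 1.17 and 1.98 CPM in CON, 1.14, 0.303 and 0.359 in the DES libraries, and 3.61, 0.829 and 0.416 in T.chuii. All DES values of Egr2 lay below those of CON. Nr4a1, an orphan nuclear receptor induced as early as Fos, was highest in T.chuii 1 and CON 1. It stood at 29.2, 4.56 and 9.31 CPM in CON, 7.02, 5.38 and 6.54 in the DES libraries, and 41.8, 19.0 and 9.36 in T.chuii. All 3 T.chuii libraries were above all 3 DES libraries, with a log2 difference of 1.62 ± 0.68. Nr4a1, like Gadd45g, Errfi1, Ptger3 and Ptger4 below, had its T.chuii libraries in the order of their adipocyte marker shares. Fast muscle markers had the same order, with 1.49%, 0.765% and 0.347% of reads in T.chuii libraries 1 to 3. The part of adipose or muscle RNA in the differences of any of these genes was not tested.

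Other immediate early products were mixed, with 15 of 22 lower in DES vs CON (median -0.23), 10 of 22 in T.chuii vs CON (median 0.19) and 7 of 22 in T.chuii vs DES (median 0.14). Gadd45g, a growth arrest and stress sensor, had its highest levels in T.chuii. It stood at 26.7, 14.5 and 26.5 CPM in CON, 28.9, 20.3 and 22.1 in the DES libraries, and 110.4, 66.9 and 29.4 in T.chuii. All T.chuii values were above all others, and the log2 difference was 1.48 ± 0.44 from CON and 1.36 ± 0.44 from DES, with limma adjusted p = 0.986 and 1.00. Errfi1, an inhibitor of EGF receptor signalling, had means of 65.4 ± 10.4, 50.4 ± 4.90 and 85.8 ± 35.3 CPM (SD, n = 3) in the order CON, DES, T.chuii. Ccn2, a matricellular growth factor target, had means of 504 ± 298, 239 ± 106 and 289 ± 73.4 CPM, with CON 2 alone at 848.

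The relatives of Dusp1 and Zfp36 had small list medians, most of them negative, against -0.02, -0.04 and -0.03 over all genes in the 3 comparisons. Other MAP kinase phosphatases had medians of -0.11, -0.08 and 0.02 in the 3 comparisons over 9 genes, of which 7, 6 and 4 were lower. Dusp6, which acts on ERK, had means of 102 ± 35.1, 81.6 ± 32.2 and 64.7 ± 15.7 CPM, and Dusp7 53.7 ± 18.9, 41.3 ± 8.86 and 34.9 ± 1.42. Dusp4 had 7.80 ± 3.30, 5.73 ± 1.95 and 8.25 ± 1.502. The 7 AU-rich element binding proteins had medians of -0.18, -0.23 and -0.11, with 5, 6 and 6 of them lower. Zfp36l1 and Zfp36l2, the relatives of Zfp36, had means in CON, DES and T.chuii of 66.9 ± 8.95, 50.7 ± 14.7 and 48.4 ± 22.6 CPM, and of 54.8 ± 13.4, 45.6 ± 3.57 and 42.3 ± 3.04 CPM. Khsrp, another decay factor, had 39.7 ± 14.2, 29.9 ± 6.07 and 27.5 ± 2.98 CPM. The 23 kinases and factors upstream of early gene induction had medians of -0.11, -0.18 and -0.06, with 18, 18 and 16 of them lower. Braf, a MAP kinase pathway kinase, had means of 62.1 ± 4.197, 55.8 ± 7.83 and 49.3 ± 11.9 CPM. Atf2, a target of stress kinases, had 67.2 ± 4.03, 71.8 ± 8.98 and 56.6 ± 10.6, and Rps6ka1, an ERK-activated kinase, had 25.7 ± 16.0, 17.98 ± 5.93 and 15.2 ± 4.08.

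Around Ptgs2, the enzymes of prostanoid synthesis were lower in 11 of 12 genes in DES vs CON, with a median of only -0.08, and in 9 of 12 in T.chuii vs CON (median -0.20). Ptgds, which makes prostaglandin D and is abundant in eye tissues, had means of 3430.4 ± 625, 3140.2 ± 881 and 4785 ± 1118 CPM in CON, DES and T.chuii. Ptges, the inducible prostaglandin E synthase that works with cyclooxygenase-2, stood at 29.2, 36.1 and 25.0 CPM in CON, 28.6, 22.9 and 23.4 in the DES libraries, and 32.1, 21.4 and 20.95 in T.chuii. Its groups overlapped, and its log2 differences from CON were -0.26 ± 0.24 and -0.29 ± 0.24. Ptgis, the prostacyclin synthase, had means of 20.1 ± 8.34, 12.7 ± 2.88 and 13.1 ± 3.29 CPM.

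Receptors, transport and breakdown of prostanoids had medians of -0.01, -0.21 and -0.16 over 12 genes. The prostaglandin E receptor Ptger3 stood at 1.19, 4.03 and 1.69 CPM in CON, 1.10, 1.04 and 0.883 in the DES libraries, and 5.71, 2.81 and 1.61 in T.chuii. All its T.chuii values lay above all its DES values, with a log2 difference of 1.52 ± 0.55 and a limma adjusted p of 1.00. Another prostaglandin E receptor, Ptger4, had means of 2.502 ± 0.0117, 2.53 ± 0.308 and 3.40 ± 0.435 CPM, and all its T.chuii values lay above all others. The prostacyclin receptor Ptgir had 2.02 ± 0.503, 1.24 ± 0.948 and 1.12 ± 0.624 CPM.

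The heat shock and handling stress list, of 8 genes, had medians of -0.14, -0.26 and -0.02. Hspa1b, an inducible chaperone that shares near-identical sequence with Hspa1a, stood at 246, 722 and 254 CPM in CON, 428, 212 and 182 in the DES libraries, and 263, 106 and 133 in T.chuii. Its highest value in each group was in the cornea-rich library, as was that of Hspa1a, and reads of the pair may have been divided between them. The T.chuii vs CON log2 difference was -1.19 ± 0.49 for Hspa1b and -0.94 ± 0.48 for Hspa1a. Dnajb1, a co-chaperone, had means of 144 ± 45.7, 136 ± 22.0 and 104 ± 13.2 CPM.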

How the data were processed

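Eyeball RNA was made into libraries with a strand-specific mRNA kit, per the labels' protocols. StringTie 2.1.3b, Bowtie2 2.3.4.1, HISAT2 2.1.0, Trimmomatic 0.38 and FastQC 0.11.7 were used on mm10, per the submitters' processing notes. Per the file headers, every deposited table gives the FPKM and the read count of each gene. Rows have a varying number of cells, so values were read from the right end. No count was 0, and the smallest was 1. Genes were kept at the CPM of 10 reads in the median library in 3 libraries or more, with 15 reads in total, which left 21287. Limma-voom (limma 3.58.1, R 4.3.3) was fitted to the deposited counts of all 9 libraries in 1 model of 3 group means that leaves 6 residual degrees of freedom. Its two-sided p-values were adjusted by Benjamini-Hochberg with a threshold of 0.05, and the fit was tested on simulated data. Python 3.11.15, pandas 2.3.3 and matplotlib 3.10.9 read the tables and drew the figures. Coordinates are from the RefSeq table of GRCm38.p6, the assembly of mm10.

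The genes and lists were chosen with earlier results of these data known. All 10 genes are named, and of each list the 3 genes with the smallest unadjusted p in any comparison at a mean of at least 1 CPM. Replicate numbers come from the sample titles, and the file headers carry other numbers. Deviations from the group mean of same-numbered libraries correlated between 0.197 and 0.635 for DES with T.chuii and between -0.421 and 0.345 for CON with either. Differently numbered libraries of different groups correlated between -0.661 (DES 1 with T.chuii 3) and 0.552 (DES 2 with T.chuii 3). Alternatives were other size factors, no filter on low counts, FPKM with a pseudocount of 0.1 or 1, 2 groups per fit, a replicate block, a cornea to rod covariate, no cornea-rich libraries, and each library left out. Leaving out CON libraries for the ratio of injected to CON means was added after seeing the data. No 2 libraries agreed within sampling noise (chi-square per degree of freedom of at least 32.7).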

Additional observations from a re-analysis of the deposited data

How the results depend on the processing

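Over 17 alternatives, 20 of the 30 differences (10 genes in 3 comparisons) kept their direction in each, and the smallest adjusted limma p of a tested gene was 0.411. Without the 3 cornea-rich libraries the log2 difference was -0.37 for Jun in DES vs CON, -0.37 for Atf3 in T.chuii vs CON and -0.011 for Atf3 in T.chuii vs DES. With each library left out in turn, signs turned within these ranges: in DES vs CON, Fosb -2.77 to 0.25, Jun -0.22 to 1.21, Atf3 -0.65 to 0.033 and Egr1 -1.26 to 0.78. In T.chuii vs CON they were Fosb -2.14 to 0.89 and Atf3 -0.11 to 0.57, and in T.chuii vs DES Egr1 -1.77 to 0.042 and Dusp1 -0.59 to 0.21. Ier2 in DES vs CON, which has no test, ranged from -0.75 to 0.24.

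The number of genes called was 0 in each comparison. It ranged from 0 to 15 in DES vs CON and from 0 to 17 in T.chuii vs CON with libraries left out, both highest without DES replicate 2. In T.chuii vs CON it was 12 with the 2 groups alone in the fit and 1 without the cornea-rich libraries, as it was in T.chuii vs DES. None of the genes called was among the 10, and the cause was not tested. With the replicate number as a block, 0 genes were called in each comparison, and genes at an unadjusted limma p under 0.05 in T.chuii vs DES went from 233 to 415. Fosb and Ptgs2 rest on the fewest reads, and 3 libraries per group limit each estimate.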
